A study of Rattus norvegicus with 2 samples.

Results

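Microglia were examined in the orbitofrontal cortex of the rat, a prefrontal region, after repeated methamphetamine (METH), a psychostimulant that releases monoamines. The microglial nuclei were chosen by their counts: at least 500 genes detected, fewer than 5000 unique molecular identifiers (UMIs, each marking 1 captured RNA molecule), at least 3 of 8 microglial markers with a UMI (Ctss, Ikzf1, Inpp5d, Lyn, Apbb1ip, Blnk, Csf1r and Cx3cr1), and no UMI of Gad1, Gad2, Slc17a7 (neurons), Mog (oligodendrocytes) or Aqp4 (astrocytes). This gate kept 125 nuclei of 12512 barcodes in all, 44 of 5543 from the METH library and 81 of 6969 from the saline library. Male Sprague-Dawley rats aged 8 weeks were injected intraperitoneally with METH at 1 mg/kg, or with saline, over 7 days, and both groups were anaesthetised with pentobarbital at 60 mg/kg before the tissue was taken. Each group had 4 animals and gave 1 library of nuclear RNA, and whether the 4 animals were pooled is not stated in the labels. With 1 library per group no test was possible and no p-value is given. The intervals below are 95% intervals that cover counting error only, not the difference between animals or libraries.

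Microglia are the resident macrophages of the brain parenchyma. They depend on signalling through the receptor Csf1r, sense nucleotides and fractalkine through P2ry12 and Cx3cr1, and survey the tissue with motile processes. They clear debris and synapses with the help of complement, and they read damage through receptors coupled to kinases of the Src and Syk families.

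The 125 members held 218602 UMIs, 73918 in METH and 144684 in saline. Their median depth was 1399 UMIs and 995 genes in METH and 1327 UMIs and 962 genes in saline, but the saline members were spread more widely, with 26 of 81 under 1000 UMIs and 14 at 3000 or more, against 7 and 3 of 44 in METH. The libraries shared 9 barcode sequences, and 0 of these were members. Astrocytes, oligodendrocytes and oligodendrocyte precursors gated in the same way served for comparison, with 729, 522 and 171 nuclei and median depths of 2168, 1826.5 and 2246 UMIs. Microglial nuclei were therefore the shallowest of the 4 classes, and shares of nuclei with a UMI in different classes are given both as counted and after thinning each nucleus to 600 UMIs. No nucleus of these classes was lost by thinning.

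The gate markers were the values that chose the members, so their levels are a description. Lyn, a Src-family kinase, had a UMI in 112 of the 125 nuclei (89.6%), Inpp5d, a lipid phosphatase that restrains immunoreceptor signals, in 109 (87.2%), and Ctss, a lysosomal protease, in 105 (84.0%). Cx3cr1, the fractalkine receptor, was seen in 53 nuclei (42.4%), the fewest of the 8. Exactly 3 markers were found in 9 nuclei, 4 in 14, 5 in 22, 6 in 26, 7 in 31 and all 8 in 23. Just outside the marker threshold, 56 nuclei met the other conditions with exactly 2 markers, at a median of 2784 UMIs. A list of 17 microglial genes that the gate did not use summed to 285 CPM (UMIs of a gene scaled by the UMIs of the class to the usual CPM unit) in these 56 nuclei, 2449 CPM in the 9 nuclei with 3 markers and 6944 CPM in all members. At the upper depth limit, 17 members had 3000 UMIs or more (3 METH, 14 saline), and 7 nuclei that met all else had 5000 UMIs or more (1 METH, 6 saline).

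**Figure D1:**
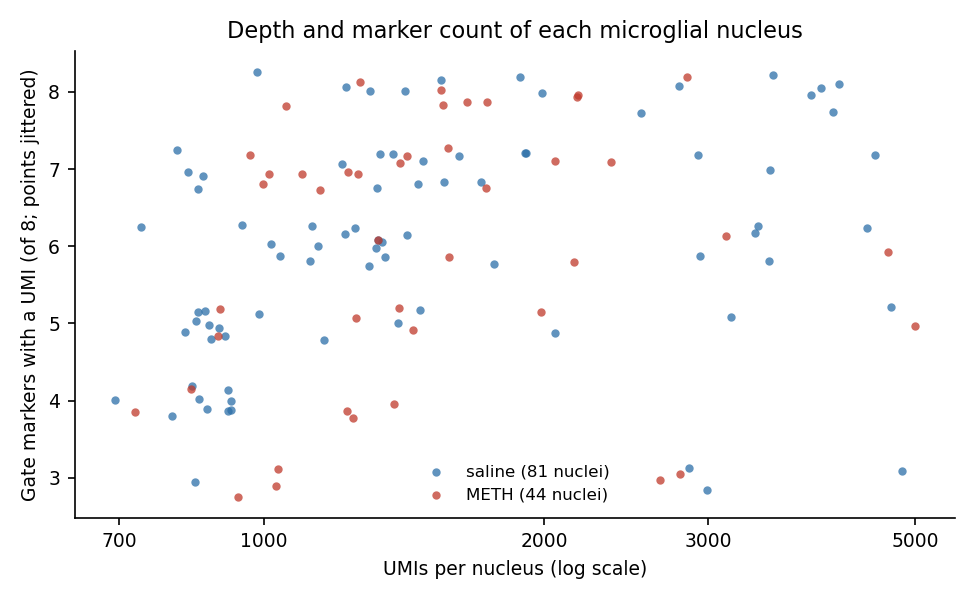
Depth and marker count of the 125 members: UMIs per nucleus (horizontal, log scale) against how many of the 8 gate markers had a UMI (vertical, jittered), 1 point per nucleus, coloured by library. The members span 692 to 4997 UMIs, and of the 17 at 3000 UMIs or more 14 are from the saline library.

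The label was checked on genes the gate did not use. At least 2 of the 17 independent microglial genes had a UMI in 120 of 125 members (96.0%), against 5.35% of astrocytes, 2.49% of oligodendrocytes and 2.34% of precursors, although those classes were deeper. The median member held 5 of the 17 genes, and the median nucleus of each other class held 0. Nuclei of the other classes were chosen to have fewer than 3 of the 8 gate markers. The part of this limit in their low shares was not tested. Ptprc (ENSRNOG00000000655), which encodes the pan-leukocyte phosphatase CD45, had a UMI in 55.2% of members as counted and 32.0% after thinning, against 0.274% and 0.137% of astrocytes. Tmem119, a membrane protein used as a microglial marker, was found in 32.0% of members and 0.686% of astrocytes, and 12.8% and 0.549% after thinning. Genes outside the rule thus set the gate as a whole apart from the other glia, but not each nucleus. Several of the 17, such as Ptprc, Runx1 and Dock8, are shared by leukocytes. A count of the 17 therefore cannot tell microglia from other leukocytes. Among the members with fewer than 2 of the 17 genes were a METH nucleus of 2665 UMIs and a saline nucleus of 2991 UMIs. These held 0 of the 17 genes, 3 gate markers each, and 34 and 20 UMIs of neuron markers. A METH nucleus of 1031 UMIs and a saline nucleus of 823 UMIs also held 0 of the 17 genes, with 5 and 2 UMIs of neuron markers. The nuclei with genes of other immune cells, described below, held at least 2 of the 17.

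The short upstream sequences of 5 genes are printed because myeloid genes are known to be controlled by the factor PU.1 (the product of Spi1), whose core motif is purine-rich. The motif GAGGAAGT was searched on both strands, where the other strand reads ACTTCCTC, in RefSeq promoters of the GRCr8 build that run from 250 bases before to 50 bases after each annotated start. It was found in 810 of 33469 promoters (2.42%), in 32 of 1305 matched promoters of genes that were tested but not called higher in microglia than in the other glia (2.45%), and in 9 of 101 matched promoters of the called genes (8.91%), which were 142 of 1792 tested (7.92%). Of the 7 gate markers with a promoter, Ctss and Inpp5d held it. The 5 genes printed were picked for holding the motif, from the gate markers and the 25 genes furthest above the other glia. Each line gives 100 bases on the plus strand, 5′ to 3′, with the motif in capitals, at chr2:185775296-185775395 (Ctss), chr9:95735438-95735537 (Inpp5d), chr7:112032682-112032781 (Cyth4), chr10:31383825-31383924 (Havcr2) and chr15:59693301-59693400 (Epsti1).
Ctss: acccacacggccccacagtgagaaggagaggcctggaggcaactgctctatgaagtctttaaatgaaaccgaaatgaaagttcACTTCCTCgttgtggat
Inpp5d: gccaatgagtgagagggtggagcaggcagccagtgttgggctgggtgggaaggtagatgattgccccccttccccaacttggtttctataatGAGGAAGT
Cyth4: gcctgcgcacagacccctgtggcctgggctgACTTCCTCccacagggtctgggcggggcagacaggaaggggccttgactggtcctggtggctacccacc
Havcr2: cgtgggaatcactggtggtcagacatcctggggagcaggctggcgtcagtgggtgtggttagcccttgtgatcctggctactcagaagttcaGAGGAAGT
Epsti1: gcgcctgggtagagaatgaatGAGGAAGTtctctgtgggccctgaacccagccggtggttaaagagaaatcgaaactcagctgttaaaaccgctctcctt
In Inpp5d and Havcr2 the motif begins 3 and 8 bases before the start, in Ctss 17, in Cyth4 69 and in Epsti1 79. The match is one of letters and shows no binding.

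To describe what set microglia apart, each gene's CPM in the pooled members was divided by its CPM in the highest of the other 3 glial classes. Those classes were limited to nuclei with fewer than 3 gate markers, and the part of this limit in the ratios was not tested. A gene was called where the members held at least 30 UMIs of it and the lower interval bound of the ratio passed 4-fold. Of 1792 genes tested, leaving out the gate genes, 142 were called (7.92%), and the median log2 ratio of all genes tested was 0.07. Of the 142 genes, 140 also passed 4-fold by their ratio, without its interval, in both libraries taken alone. The 142 were chosen on the sum of these libraries, so this is a description and not a separate check. By the full call 60 genes were called in METH alone and 86 in saline alone. Levels are CPM per gene and are not corrected for transcript length, so they are compared between classes and not between genes.

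Of the genes of immunoreceptor signalling 12 of 12 tested were called, with a median log2 ratio of 6.55. Ptprc stood at 558 CPM (95% counting interval 463 to 666) against 1.16 in astrocytes, 0.964 in oligodendrocytes and 0 in precursors. Its log2 ratio to the highest of these was 8.91 (7.02 to 11.97). Lcp2, an adaptor that links receptors to phospholipase C, was at 325 CPM (254 to 409.7) with 1 UMI in the other 3 classes together (log2 ratio 9.13, 6.60 to 14.45). Havcr2, the inhibitory receptor TIM-3, was at 219.6 CPM in members and at 0 in the other 3 classes, which set its log2 ratio at 6.98 or more against a floor of 3 counts.

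Of the myeloid transcription factors 5 of 8 tested were called. Fli1 (586 CPM, log2 ratio 7.66) and Runx1 (572 CPM, 7.36), factors of blood lineages, were below 4 CPM in each other glial class. Fli1 was also at 381 CPM in 180 endothelial nuclei gated alike, a class outside the comparison. With these nuclei added to it, the 142 called genes became 106. Mef2c, a factor shared with neurons, was at 1720.0 CPM against 159 in astrocytes, 129 in oligodendrocytes and 109.7 in precursors, and at 684 CPM in endothelial nuclei. Sall1, a factor of microglial identity, was at 435 CPM against 41.4 in oligodendrocytes, and Irf5, an interferon regulatory factor, was at 201 CPM. Spi1 itself was sparse, at 20 UMIs and 91.5 CPM (55.9 to 141), and was not tested.

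The homeostatic list had 7 of 10 tested members called. Slco2b1, an organic anion transporter, was at 1185 CPM (1045 to 1338) against 6.39 in astrocytes, 7.71 in oligodendrocytes and 4.99 in precursors, and 208 in endothelial nuclei. Ltc4s, the leukotriene C4 synthase, was at 833 CPM and Tmem119 at 265 CPM, with log2 ratios of 7.03 (6.15 to 8.05) and 5.73 (3.82 to 8.81). Cst3, a cysteine protease inhibitor, was the most abundant of the list at 2498 CPM but was not called, with a log2 ratio of 2.11 over astrocytes (577 CPM). P2ry12, the purinergic receptor often used to mark homeostatic microglia, gave 13 UMIs (59.5 CPM, 31.7 to 102), and was seen in 9.60% of members against 0.412% of astrocytes, or 0.800% and 0.137% after thinning.

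Other purinergic genes were better covered. P2ry6, a receptor for uracil nucleotides, was at 219.6 CPM with a log2 ratio of 6.56. Entpd1, the enzyme CD39 that degrades extracellular ATP, was at 416 CPM (3.38). P2rx7, an ATP-gated channel, was at 659 CPM and was not called, since precursors stood at 125 CPM. Among channels 1 of 7 tested was called, Kcnk13, the potassium leak channel THIK-1, at 430.0 CPM (347 to 526) against 3.49 in astrocytes, 1.93 in oligodendrocytes and 0 in precursors. Of the Csf1, Tgfb and Cx3c genes 1 of 4 tested was called, Nrros, which anchors latent Tgfb1 on microglia, at 183 CPM.

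**Figure D2:**
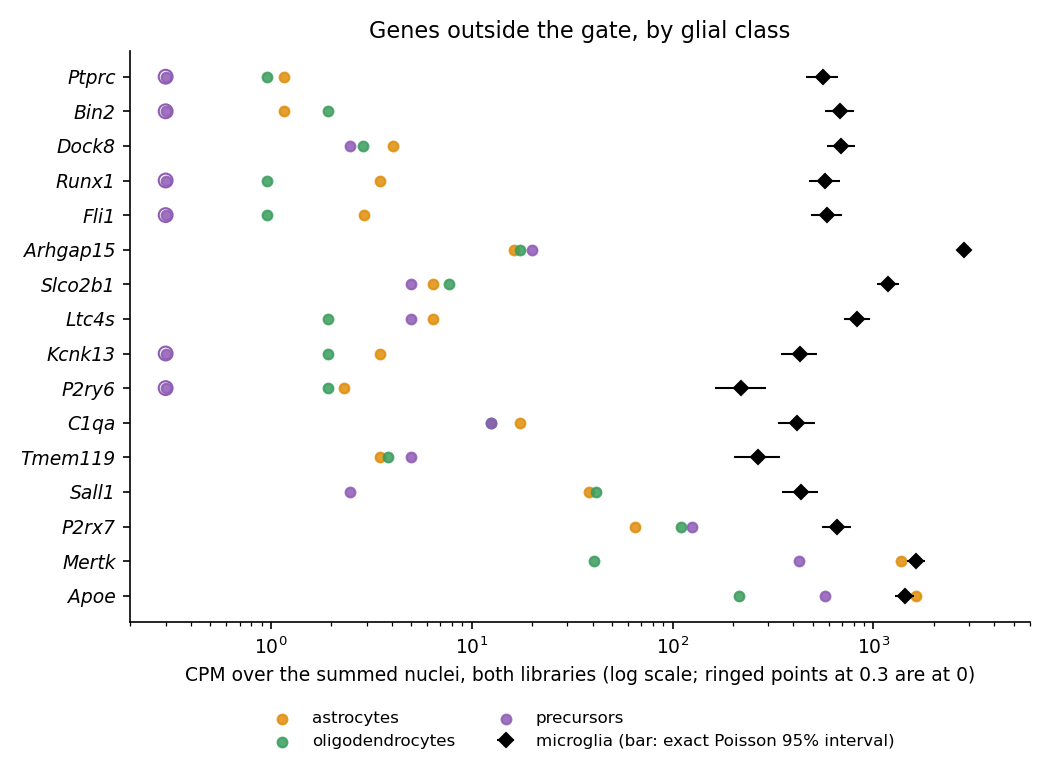
CPM of 16 genes outside the gate (rows) in microglia (diamonds with exact Poisson 95% intervals) and in the other glial classes (circles), pooled over both libraries on a log scale, with ringed points for 0. Ptprc, Runx1 and Fli1 lie far above the other classes, while Mertk and Apoe in microglia lie close to their level in astrocytes.

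Complement genes were called in 4 of 4 cases tested. C1qa, C1qb and C1qc, the subunits of C1q that start the classical pathway, were at 416, 229 and 183 CPM, with log2 ratios of 4.58, 4.08 and 4.20. Complement receptors were sparse, with Itgam at 119 CPM and Itgb2 at 91.5 CPM, below the count needed for a test.

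Actin and Rac regulators, which drive process motility, were called in 6 of 11 cases tested. Arhgap15, a Rac-directed GTPase-activating protein, was at 2832 CPM (2613 to 3064) against 16.3 in astrocytes, 17.3 in oligodendrocytes and 19.9 in precursors. Dock8, a guanine exchange factor of leukocytes, was at 691 CPM with a log2 ratio of 7.41. Elmo1, an engulfment adaptor, was at 1121 CPM in microglia and 1246 CPM in oligodendrocytes, with a log2 ratio of -0.15 (-0.36 to 0.05). Outside the lists, Srgap2, a membrane-bending protein with a Rac-directed domain, was at 4762 CPM (log2 ratio 4.30) and was found in 94.4% of members and 31.6% of astrocytes (84.0% and 8.37% after thinning). Endothelial nuclei held Srgap2 at 857 CPM. The most abundant row of the table was AC134224.3, a locus with no gene name, at 48371 CPM in microglia against 98047 in astrocytes, 157500.0 in oligodendrocytes and 42883 in precursors.

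Of the phagocytic and lysosomal genes 2 of 12 tested were called, with a median log2 ratio of 1.56 over the 12. The list summed to 5567 CPM in microglia and 3032 CPM in astrocytes. The called genes included Npc2, a cholesterol carrier of the lysosome (375 CPM, log2 ratio 2.54). Mertk, a receptor for apoptotic cells, was at 1628 CPM in microglia and 1378 CPM in astrocytes, a log2 ratio of 0.24 (0.08 to 0.40). Of the genes known from disease-associated microglia 0 of 3 tested were called. Apoe, the main lipid carrier of the brain, was at 1432 CPM against 1634 in astrocytes (log2 ratio -0.19, -0.36 to -0.02). Trem2, a lipid-sensing receptor, was at 109.8 CPM from 24 UMIs, and Clec7a, Cst7, Gpnmb, Itgax and Lgals3 were at 0. A count of 0 allows up to 13.7 CPM, or a UMI in up to 2.4% of nuclei.

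Of the inflammatory list 3 of 4 tested genes were called. The interleukin-6 receptor gene Il6r was at 522 CPM (log2 ratio 4.35), the RNA sensor Tlr7 at 265 CPM (5.73, interval 3.82 to 8.81) and Il18 at 229 CPM (4.31). The cytokines and chemokines Il1a, Il1b, Tnf, Il10, Ccl2, Ccl3, Ccl4 and Cxcl10, and Nos2, were at 0 UMIs in the 125 nuclei, among 12 of the 29 genes of the list at 0. The libraries hold nuclear RNA, and the cytoplasm was not measured. Of the interferon list 0 of 17 genes reached 30 UMIs, and 7 were at 0.

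Since METH acts on monoamine transport, a list of 20 monoamine receptors and METH targets was examined. It summed to 75 UMIs (343 CPM) over 11 of its genes, with a UMI in 35.2% of members, against 592 CPM in astrocytes, 225 in oligodendrocytes and 229 in precursors. None of the 20 reached 30 UMIs. Among the 9 at 0 were Drd1, Drd2, Drd3, Drd4, Drd5, the trace amine receptor Taar1 and the dopamine transporter Slc6a3. Of the glucocorticoid-responsive list 0 of 4 tested were called, and Fkbp5, a chaperone induced by glucocorticoids, was at 522 CPM against 516 in astrocytes.

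The gate genes weighed on the immunoreceptor list, where Lyn, Inpp5d, Apbb1ip and Blnk gave 1202 of the 2111 UMIs in members. Without them the list summed to 4158 CPM in microglia, 172 in astrocytes, 88.6 in oligodendrocytes and 32.4 in precursors.

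**Figure D3:**
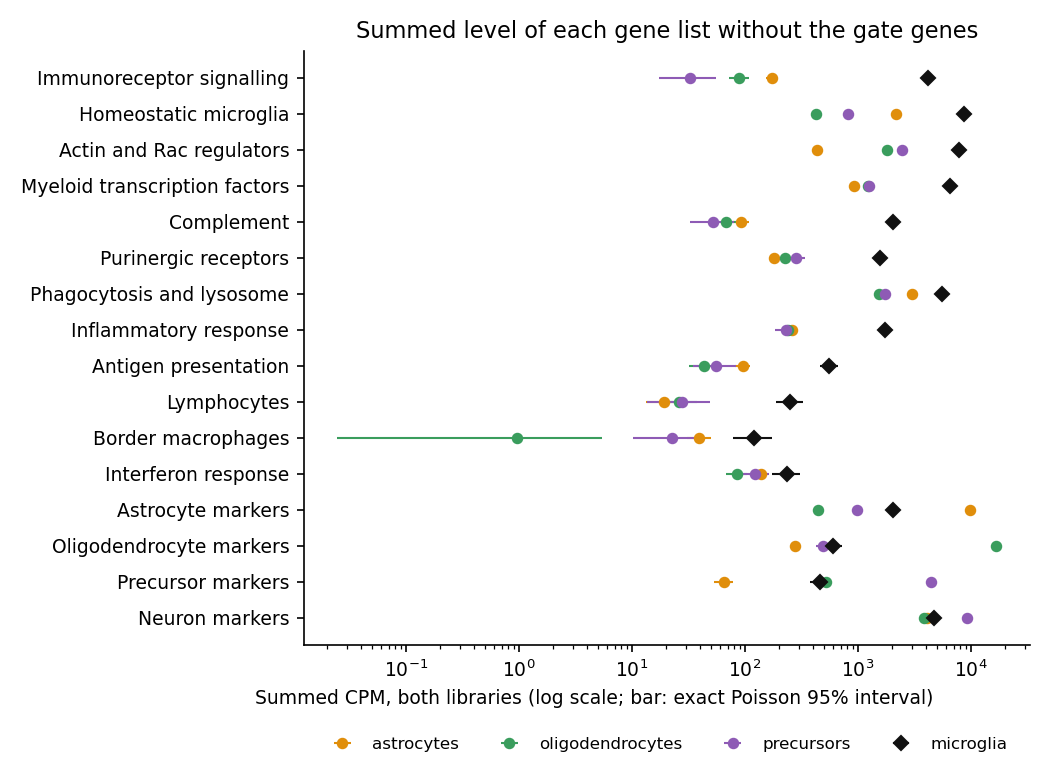
Summed CPM of 16 gene lists (rows), leaving out the genes of the microglial gate, in microglia (diamonds) and the other glial classes (circles), both libraries pooled, on a log scale with exact Poisson 95% intervals. Microglia lie highest for the upper 12 lists, and for neuron markers they lie near astrocytes and oligodendrocytes and below precursors.

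Few abundant glial genes were low in microglia. Of 539 genes with at least 100 UMIs in each other class, 5 had an upper interval bound more than 2-fold below the lowest other class (0.928%): Usp54, of the ubiquitin-specific protease family (526 CPM, log2 ratio to the lowest class -1.58), Gpm6b, a myelin-related proteolipid (229 CPM, -1.45), Zbtb16, a zinc-finger repressor induced by glucocorticoids (178 CPM, -1.61), Robo1, a Slit receptor (174 CPM, -1.52), and Psd3, an Arf6 exchange factor (86.9 CPM, -1.84).

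Genes used as markers of other cells had UMIs in the members, and whether this RNA came from other cells was not tested. Neuron markers summed to 4707 CPM in microglia, 4103 in astrocytes, 3822 in oligodendrocytes and 9151 in precursors, and at least 1 such UMI was found in 120 of 125 members, although Gad1, Gad2 and Slc17a7 were at 0 by the gate. Astrocyte markers summed to 2027 CPM in members against 439 in oligodendrocytes and 9963 in astrocytes. At least 3 genes of another glial or endothelial gate were found in some members: 10 for astrocytes, 8 for precursors, 3 for endothelium and 1 for oligodendrocytes. With border macrophage and lymphocyte lists included, 22 members (9 METH, 13 saline) carried such sets and 103 (35 METH, 68 saline) carried none. Neuron markers were not among these sets. At least 3 neuron-marker genes were found in 73 of the 125 members, 20 of 44 in METH and 53 of 81 in saline. Scrublet, a caller of doublets, marked 328 METH barcodes (5.97%) and 399 saline barcodes (5.77%) and 0 of the 125 members. The part of the 22 members in the results was not tested beyond the values without them given below.

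Single nuclei held genes of other immune cells. A METH nucleus with 836 UMIs and 4 gate markers held 4 UMIs each of Mrc1, Cd163 and F13a1, 3 of Stab1 and 1 of Clec10a, genes of macrophages at the brain borders. These were 16 of the 22 border macrophage UMIs of the METH members, against 4 UMIs in saline, and the border genes Pf4, Ms4a7, Siglec1 and Cd209f were at 0. A METH nucleus with 2801 UMIs and 3 gate markers held T-cell and killer-cell genes, with 5 UMIs of Skap1, 2 of Nkg7 and 1 each of Cd3e, Cd3g, Cd247, Cd8a and Bcl11b. Cd79b, Ms4a1 and Pax5, genes of B cells, had UMIs in 1 METH nucleus of 1381 UMIs and 1 saline nucleus of 908 UMIs. A METH nucleus of 938 UMIs with 3 gate markers held 9 UMIs of Cd74, 6 of RT1-Db1, 4 of RT1-Ba and 3 of RT1-Da, the class II antigen-presenting genes. These nuclei passed the rule and are kept as members, since several gate markers are shared by leukocytes.

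Among members, some genes varied more than counting error gives. After thinning, the variance of UMIs over their mean (1 for pure counting) was 2.60 for Cst3, where 1 METH nucleus held 28 of 546 UMIs. It was 2.89 for Brinp3, 2.63 for Il1rapl1, 2.61 for Nlgn1, 2.23 for Sox6 and 2.22 for Luzp2, genes of neurons or other glia. The 22 members with sets of other cells held 29.1% of all member UMIs. They held 56.0% of the Brinp3, 45.0% of the Il1rapl1, 54.2% of the Nlgn1, 71.2% of the Sox6 and 64.4% of the Luzp2 UMIs, but 17.2% of the Cst3 UMIs. Slfn4, a Schlafen-family gene called above the other glia, rested on 2 METH nuclei with 27 and 4 UMIs and was at 0 in saline.

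Microglia made up a smaller share of the METH library than of the saline library, with an interval that nearly reached 0. They were 0.801% of 5490 METH barcodes with at least 500 genes (exact Clopper-Pearson interval 0.583% to 1.07%) and 1.17% of 6917 saline barcodes (0.931% to 1.45%). The log2 ratio of METH over saline was -0.55 (-1.11 to -0.000167), and the interval held 0 under 5 of 11 alternatives, among them members of under 3000 UMIs (-0.38, -0.97 to 0.21). Among the 4 gated glial classes microglia were 6.37% of METH and 9.46% of saline nuclei, or -0.57 as a log2 ratio (-1.14 to -0.025). Astrocytes were 6.16% and 5.65%, oligodendrocytes 4.23% and 4.19%, and precursors 1.40% and 1.36% of the same barcodes. Members of 3000 UMIs or more, just under the depth limit, numbered 3 in METH and 14 in saline. Median depth over all barcodes was 6401 UMIs in METH and 4992 in saline, and its part in the share was not tested.

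The METH and saline members were compared for the most abundant genes, those with at least 100 UMIs over both libraries. Of 256 such genes, 1 was higher in METH (0.391%) and 4 were lower (1.56%) where the ratio and its nearer interval bound both had to pass 1.5-fold. Such a call compares these 2 libraries, not the treatments. The median log2 ratio of the 256 genes was 0.06, with 150 above 0 and 106 below, and the interval held 0 for 196 of them. At this depth the median interval spanned 1.07 on the log2 scale. In simulated counts with counting error only, the rule called 8 of 17 tested genes changed 2-fold and 15 of 16 changed 3-fold. A gene that was not called may thus still differ.

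**Figure D4:**
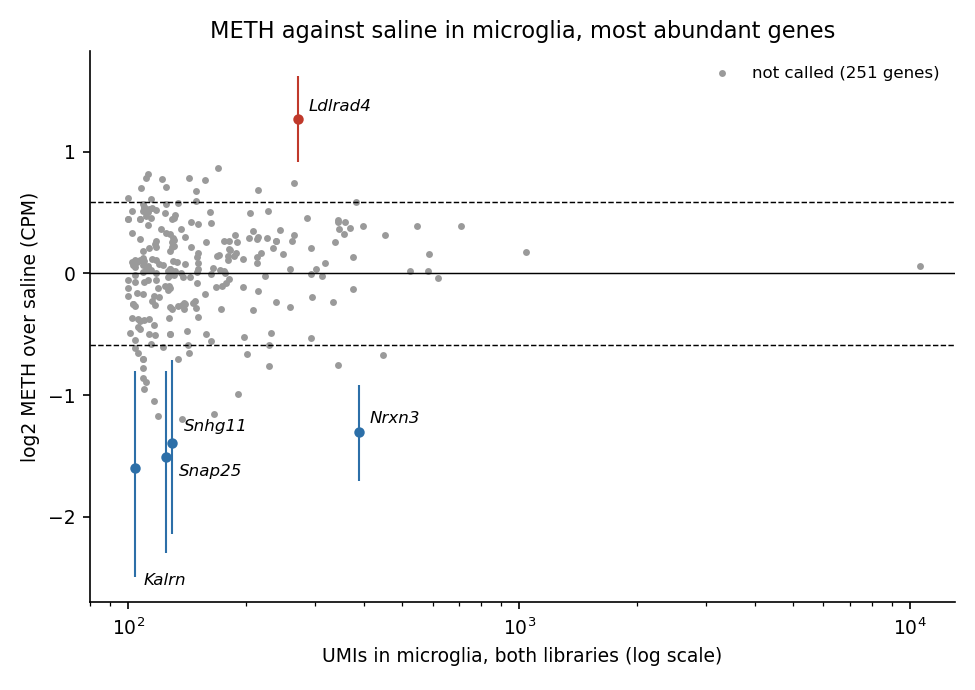
Log2 ratio of METH over saline CPM (vertical) against UMIs in both libraries (horizontal, log scale) for the 256 most abundant genes of microglia, with 95% counting intervals for the 5 called genes and dashed lines at 1.5-fold. Ldlrad4 lies alone at 1.27, and Nrxn3, Snap25, Snhg11 and Kalrn lie between -1.30 and -1.60.

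Ldlrad4 (ENSRNOG00000016879), which encodes a membrane protein that restrains TGF-beta signalling through Smad proteins, was the gene higher in METH. It had 150 UMIs over 44 METH nuclei and 122 over 81 saline nuclei, or 2029 CPM (1718 to 2381) and 843 CPM (700 to 1007), a log2 ratio of 1.27 (0.91 to 1.62). The gene had a UMI in 86.4% of METH and 61.7% of saline members, with a median of 3 and 1 UMIs per nucleus. The highest METH nucleus held 18 UMIs and the highest saline nucleus 7, and nuclei of both libraries overlapped across 0 to 7 UMIs. Over both libraries Ldlrad4 was at 1244 CPM in microglia against 70.9 in astrocytes, 51.1 in oligodendrocytes and 254 in precursors. Its METH over saline log2 ratio was -0.13 in astrocytes, -1.62 in oligodendrocytes (-2.65 to -0.69) and -0.13 in precursors, and the difference between classes was not tested. The ratio was 0.95 to 1.40 under the 15 alternatives run, and 1.16 among members of under 3000 UMIs. Ldlrad4 was called in 11 of the 11 alternatives to the choice of nuclei or UMIs. Among these, the limit of 5% mitochondrial UMIs and the removal of Scrublet doublets left the members and their counts unchanged.

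The 4 lower genes are known from neurons. Nrxn3, a presynaptic adhesion molecule, was at 906 CPM in METH and 2232 CPM in saline (log2 ratio -1.30, -1.70 to -0.92). Its median was 1 UMI per nucleus in both libraries, and 3 saline nuclei with 57, 44 and 35 UMIs held 42.1% of the saline sum. Snap25, a protein of synaptic vesicle fusion, was at 257 and 733 CPM (-1.51, -2.30 to -0.80), and its highest nucleus held 3 UMIs in METH and 15 in saline. Snhg11, a long noncoding RNA abundant in neurons, was at 284 and 746 CPM (-1.39, -2.14 to -0.71). Kalrn, a guanine exchange factor of dendritic spines, was at 203 and 615 CPM (-1.60, -2.50 to -0.80).

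Neuron markers of the members are set beside these values. The neuron-marker list, which holds Nrxn3 and Snap25, summed to 2706 CPM in METH and 5729.7 CPM in saline (log2 ratio -1.08), at a median of 3 and 5 UMIs per nucleus. Nrxn3 and Snap25 themselves gave 67 and 19 of its 200 METH UMIs, and 323 and 106 of its 829 saline UMIs. The list is thus not a measure apart from the called genes. In astrocytes the list summed to 3468 and 4754 CPM, in oligodendrocytes to 3182 and 4461 CPM, and in precursors to 9223 and 9084 CPM. Snap25 had METH over saline log2 ratios of -0.85 in astrocytes, -0.81 in oligodendrocytes and -0.37 in precursors, and Snhg11 had -1.14, -0.84 and -1.11. The 22 members with sets of other cells were not chosen by neuron markers. Without them the neuron-marker sums were 1935 and 6431 CPM, Nrxn3 was at -2.19 and Kalrn at -2.93. Among members of under 3000 UMIs 0 genes were called lower of the 127 that still reached 100 UMIs. Kalrn did not reach 100 UMIs in these members and could not be called. There the log2 ratios were -0.92 for Nrxn3 (-1.45 to -0.41), -1.06 for Snap25 (-1.94 to -0.25), -0.68 for Snhg11 (-1.59 to 0.17) and -1.71 for Kalrn (-2.86 to -0.71). Of the 11 alternatives to the choice of nuclei or UMIs, Snap25 was called in 9, Nrxn3 in 7, Snhg11 in 7 and Kalrn in 5. These tallies include the 5% mitochondrial limit and the removal of Scrublet doublets, which left the members unchanged and repeat the main calls. Kalrn had 104 UMIs over all members, so a gate that drops nuclei can take it below the 100 UMIs needed for a call. Its upper bound passed 1.5-fold without a call at 4 markers (-0.65), under 3000 UMIs (-0.71), at 800 genes (-0.77) and without the 22 members (-1.64). The part of RNA from neurons in the 4 genes was not tested.

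Other abundant genes of the members, called above the other glia or not, did not pass the rule. Arhgap15 was at 2787 CPM in METH and 2854 CPM in saline (log2 ratio -0.03, -0.28 to 0.21), and Srgap2 at 5154 and 4562 CPM (0.18, -0.01 to 0.36). Apoe (-0.02), Slco2b1 (0.04) and Mef2c (-0.12) had intervals that held 0. Cst3 was at 2963 and 2260.1 CPM (0.39, 0.14 to 0.64), Tmcc3, a coiled-coil protein of the endoplasmic reticulum, at 3842 and 2930.5 CPM (0.39, 0.17 to 0.61), and Runx1 at 771 and 470.0 CPM (0.71, 0.18 to 1.24). Ptprc was at 771 and 449 CPM (0.78, 0.24 to 1.31). These 4 intervals lie above 0 without passing the 1.5-fold rule. Of the 256 genes tested, 33 had an interval above 0 and 27 had one below. Without the highest nucleus of each library the interval of Cst3 held 0 (-0.007 to 0.52), and that of Tmcc3 did not (0.12 to 0.58). Ptprc was the immunoreceptor gene outside the gate with at least 100 UMIs. The gate markers of that list, Lyn (0.39), Inpp5d (0.42), Apbb1ip (0.27) and Blnk (0.50), chose the members, and their ratios are a description. All 8 gate markers summed to 11120.4 CPM in METH and 8764 CPM in saline, so the METH members carried more of the RNA that chose them.

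Antigen presentation genes were sparse, and 0 of the 16 listed reached the 100 UMIs needed for a call. The list had 79 UMIs in METH and 43 in saline, or 1069 and 297 CPM, a log2 ratio of 1.85. Among the gene lists summed, only border macrophages had a larger ratio (3.43), and most ratios lay nearer 0. These sums compare the libraries, and a difference by treatment was not tested. At least 1 such UMI was found in 21 of 44 METH and 23 of 81 saline members. The highest METH nuclei, the ones with class II genes and with T-cell genes described above, held 25 and 20 UMIs. Without the 3 highest nuclei of each library the sums were 436 and 211 CPM, a log2 ratio of 1.04 (0.26 to 1.83). Without the 22 members with sets of other cells they were 1055 and 309 CPM, a log2 ratio of 1.77 (1.12 to 2.45). These 22 include the nucleus with T-cell genes but not the one with class II genes, and the interval lay above 0 under both removals. The invariant component B2m had 29 UMIs in METH and 11 in saline, of which 13 came from the METH nucleus with T-cell genes.

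**Figure D5:**
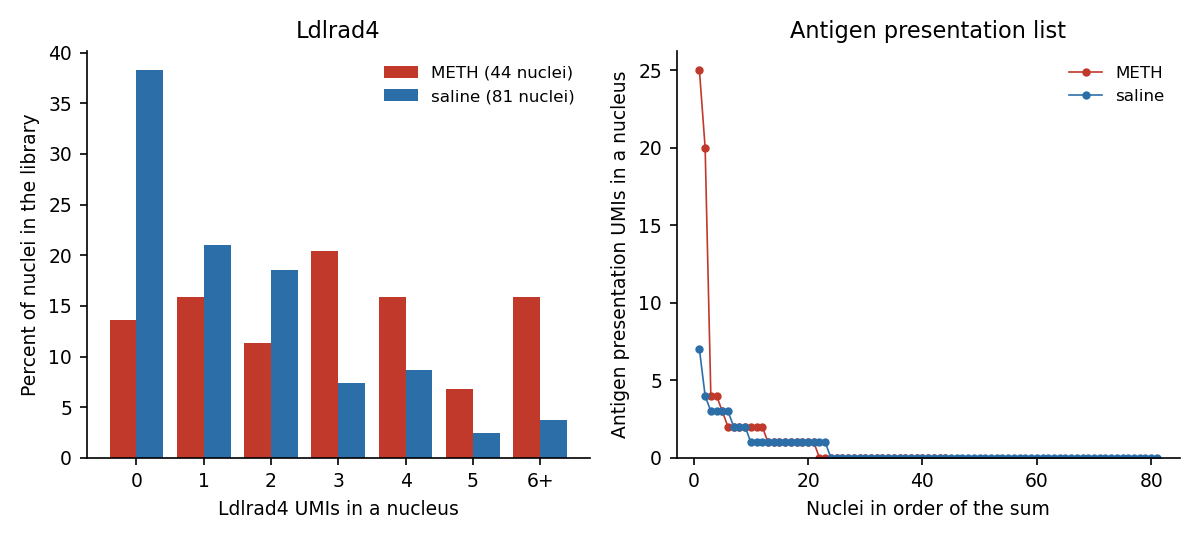
Left, percent of members of each library (vertical) by Ldlrad4 UMIs per nucleus (horizontal); right, antigen presentation UMIs per nucleus (vertical), nuclei ordered from high to low. In the left panel 38.3% of saline and 13.6% of METH members have 0 UMIs; in the right panel METH nuclei with 25 and 20 UMIs stand apart from the rest.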

How the data were processed

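Nuclear RNA was measured with the Chromium 3′ v3.1 chemistry. The values deposited by the authors are raw UMI counts, produced by Cell Ranger 7.0.0 according to the submitters' processing notes. The build named there is a human one that the rat gene identifiers do not match; no rat build is named in the labels. The 25399 gene rows carry their own symbols. Raw counts were summed over the members of a class and scaled to CPM, with exact Poisson intervals, exact conditional binomial intervals for ratios and Clopper-Pearson intervals for shares, at 95% (Python 3.11.15, scipy 1.17.1). Library totals were 44969322 UMIs in METH and 42221257 in saline. The comparison glia needed at least 500 genes, fewer than 5000 UMIs and markers of their own class. They also needed fewer than 3 of the 8 microglial gate markers and no UMI of Gad1, Gad2 or Slc17a7. The members and the gene lists were chosen with earlier results of these data known.

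Genes were named as the 25 most abundant and the 25 furthest above the other glia, the gate markers, up to 6 per list and direction of change, the 12 most abundant of the METH contrast, the 8 most variable and the 10 lowest against other glia; a selection is described. The cytokines at 0, complement receptors and genes of single nuclei were named after their values were seen. Calls were checked on simulated counts that had counting error only. Variation between nuclei, which the members showed, was not simulated, so the check does not cover it. Alternatives included other gates, other count minimums, edgeR 4.0.16 TMM scaling, thinning and Scrublet in scanpy 1.11.5. Some genes covered by these rules are not reported here.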

Additional observations from a re-analysis of the deposited data

How the results depend on the processing

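No paired analysis was possible because each group has 1 library, and leaving out a replicate was not possible for the same reason. The microglial share kept its sign under 11 of 11 alternatives, with log2 ratios of METH over saline from -0.78 to -0.33, but its interval held 0 under 5 of them: at least 2 markers, under 3000 UMIs, at least 800 genes, at most 1% mitochondrial UMIs and Scrublet doublets removed. Of 240 values of 16 named genes under alternatives, 223 moved by less than the counting interval, 17 moved by more, and 0 ratios of called genes changed sign. The 223 include the values at most 5% mitochondrial UMIs and without Scrublet doublets, which repeat the main ones because the members did not change. TMM scaling shifted the median ratio of the tested genes by -0.08. The 142 genes called above the other glia became 251 at 10 or more UMIs, 40 at 100 or more, 239 at 2-fold, 60 in METH alone, 86 in saline alone and 52 after thinning. The 1 gene higher in METH became 2 with at least 2 markers (Ldlrad4 and Ptgds), 2 with no zero-UMI condition, 3 at 50 or more UMIs and 3 without the 22 members carrying sets of other cells (Ldlrad4, Lrp4 and Slc1a3), the last of these chosen after seeing the data. The 4 lower genes became 2 with at least 2 markers, 0 under 3000 UMIs, 23 with no upper limit, 13 with no zero-UMI condition, 7 without those 22 members, 0 after thinning, 12 at 50 or more UMIs, 1 at 200 or more and 2 with nuclei weighted equally. Under 3000 UMIs 127 genes were tested and after thinning 32, against 256, which lowers such counts by construction. The thinned log2 ratio of Nrxn3 was -1.61 (-2.50 to -0.80), below the 100 UMIs needed for a call. Thinning and the 125 nuclei limit what could be seen, and genes below 30 UMIs were not tested.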

Other observations

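Further genes set the microglia apart from the other glia, by the same call. Slc2a5, the fructose transporter GLUT5, was at 595 CPM in members against 2.90 in astrocytes, 0.964 in oligodendrocytes and 2.49 in precursors, a log2 ratio of 7.68 (6.42 to 9.32). Bin2, a membrane-curving protein of leukocytes, was at 682 CPM (8.47, 6.59 to 11.53), Ly86, a partner of a Toll-like receptor homologue, at 379.7 CPM (8.62, 6.10 to 13.94), and Gna15, a G-protein subunit of blood cells, at 284 CPM (8.20, 5.67 to 13.53). Nlrc4, an inflammasome component, was at 137 CPM in members and at 0 in the other 3 classes. Rgs10, a regulator of G-protein signalling, was at 586 CPM (5.98, 5.22 to 6.83). Anxa3, an annexin, was at 682 CPM in members and below 2 CPM in the other glia, but at 553 CPM in endothelial nuclei.

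Among the genes with the most UMIs in members, Nav3, a microtubule-associated protein, was at 2694 CPM (log2 ratio 3.54) and Ssh2, a cofilin phosphatase, at 2672 CPM (3.34), and both were called. Zfp710, a zinc-finger protein, was at 1688 CPM (3.45) and was called too. Oxr1, an oxidation resistance gene, and Slc9a9, an endosomal sodium and proton exchanger, stood at 2402 and 1748 CPM but were not called, with ratios of 1.93 and 1.95. Slc9a9 was at 2246 CPM in METH and 1493 CPM in saline, a log2 ratio of 0.59 (0.29 to 0.89).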
